A study of Mus musculus with 9 samples.

Results

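Milk genes were followed across the 9 mammary tissue arrays of a study of tumours in MMTV-Wnt1 mice. The set holds 10 genes chosen by name: the caseins Csn1s1, Csn1s2a, Csn2 and Csn3, the whey proteins Wap, Lalba, Glycam1 and Ltf, and the fat globule proteins Btn1a1 and Xdh. Each had 1 probe set carrying its symbol alone, out of 22180 genes with such a probe set. All 10 were among the 17478 genes that passed a filter on low values, for which a gene had to exceed the 30th percentile of the array on 3 or more arrays.

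The study asked how metastatic differed from non-metastatic mammary tumours. It used female FVB mice and 1 array per mouse, with 3 normal mammary glands, 3 non-metastatic tumours and 3 metastatic tumours. The tumour mice were labelled Wnt1+/- and carried the MMTV-Wnt1 transgene, in which the hormone-responsive promoter of the mouse mammary tumour virus drives Wnt1 in mammary epithelium. The normal glands came from control mice labelled Wild-type Wnt1. All groups, the controls included, drank 6% sucrose with 200 ug/ml doxycycline from 6 weeks of age. Tumours were taken at 20 mm, at 222 to 354 days of age in the non-metastatic group and 281 to 300 days in the metastatic group, whereas the normal glands came from mice aged 533 to 556 days. Age and tumour status therefore cannot be told apart in comparisons with normal gland. The labels do not say whether the mice had been pregnant or were lactating.

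Values are log2 expression values, so a difference of 1 means a factor of 2, and each array's median lay between 5.80 and 5.94. Wnt1 itself separated the labels, at 5.45 to 5.71 in the normal glands and 11.20 to 12.40 in the tumours. The luminal keratin Krt8, which marks the epithelium that makes milk, was measured on every array, at 8.60 to 11.16. Tissue markers set normal gland 2 apart. All 8 skeletal muscle markers and 8 of 10 markers of differentiated epidermis were highest on that array among the 9, and 8 of 9 luminal epithelial markers were lowest there.

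Milk is made by the luminal secretory cells of the gland. Prolactin, acting through its receptor, the kinase JAK2 and the transcription factors STAT5A and STAT5B, switches on casein and whey protein genes together with glucocorticoid, and the transcription factor ELF5 drives formation of the secretory cells. Caseins are exported as micelles, alpha-lactalbumin makes the sugar of milk, and lipid droplets leave the cell wrapped in membrane that butyrophilin and xanthine oxidoreductase help to attach.

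The 4 casein genes lie on the same chromosome, and STAT factors bind the letters TTCNNNGAA, so promoters of the milk genes were read for this motif. RefSeq promoters (GRCm38.p6, 250 bases before to 50 after the gene start) were held for 7 of the 10 genes, and 4 of these 7 contained TTCNNNGAA, a sequence that reads alike on both strands. The same motif occurred in 8.30% of all 32851 RefSeq promoters. The stretches of 160 bases from the gene's own strand, ending 21 bases before the start, show where it lay for 3 genes, with Wap as a gene without a match in its window. Capitals mark the match.
Csn1s1 (chr5:87666028-87666187, plus strand): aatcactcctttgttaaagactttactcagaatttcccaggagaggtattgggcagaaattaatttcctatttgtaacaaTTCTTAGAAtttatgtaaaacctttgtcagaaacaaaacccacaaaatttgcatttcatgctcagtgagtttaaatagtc
Csn2 (chr5:87699446-87699605, minus strand): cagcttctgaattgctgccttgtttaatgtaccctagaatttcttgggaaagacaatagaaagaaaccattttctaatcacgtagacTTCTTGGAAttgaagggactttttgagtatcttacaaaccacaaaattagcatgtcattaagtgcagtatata
Glycam1 (chr15:103565102-103565261, minus strand): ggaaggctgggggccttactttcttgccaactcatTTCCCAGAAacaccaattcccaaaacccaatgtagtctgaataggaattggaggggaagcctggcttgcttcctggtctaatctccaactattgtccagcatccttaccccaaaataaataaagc
Wap (chr11:6638670-6638829, minus strand): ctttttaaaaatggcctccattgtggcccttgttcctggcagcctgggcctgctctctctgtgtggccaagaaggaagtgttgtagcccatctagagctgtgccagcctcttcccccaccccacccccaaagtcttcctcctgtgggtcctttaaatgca

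The match began 100 bases before the start of Csn1s1, 93 before Csn2 and 145 before Glycam1. In Csn1s2a it lay 21 bases after the start. The longer form, with 4 in place of 3 free letters between TTC and GAA and found in 6.95% of all promoters, occurred in Csn2, 140 bases before the start and without overlap with the other match. These are matches of letters and not measured binding sites.

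The casein genes were among the brightest on most arrays and far dimmer on a pair of them. Csn1s1, the alpha-S1 casein, read 13.29, 9.00 and 13.48 in normal glands 1 to 3, 13.10, 13.16 and 12.68 in the non-metastatic tumours and 13.21, 7.72 and 12.69 in the metastatic tumours. Normal gland 2 and metastatic tumour 2 were low, and the other 7 arrays lay within 0.81. The highest array exceeded the lowest by a factor of 54.2. In bulk tissue, fewer cells of a type and less RNA per cell cannot be told apart, and this applies to every value given here.

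Csn2, the beta-casein, was low on the same pair of arrays. It read 13.78, 9.83 and 13.90 in the normal glands, 13.66, 13.70 and 13.11 in the non-metastatic tumours and 13.77, 10.65 and 13.52 in the metastatic tumours. The other 7 arrays lay within 0.79. On these 7 arrays Csn2 was 0.06 to 0.85 below the highest value of any probe set on the same array, so little of the scale remained above them.

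Csn1s2a, a second calcium-binding alpha casein, read 13.39, 7.86 and 13.50 in the normal glands, 13.09, 13.34 and 12.00 in the non-metastatic tumours and 13.21, 8.90 and 12.20 in the metastatic tumours. Csn3, the kappa-casein that coats and stabilises the micelle, read 12.39, 9.95 and 12.85, then 13.23, 12.96 and 12.13, then 12.83, 9.45 and 12.91 in the same order of groups. Both showed low values in normal gland 2 and metastatic tumour 2. Csn3 had the smallest range of the 10 genes, at 3.78, or a factor of 13.7.

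The whey protein genes ranged over 4.11 (Ltf) to 6.64 (Glycam1), and the caseins over 3.78 (Csn3) to 5.76 (Csn1s1). Wap, the whey acidic protein of rodent milk, read 8.92, 3.54 and 9.10 in the normal glands, 7.62, 8.05 and 5.65 in the non-metastatic tumours and 9.16, 4.04 and 6.01 in the metastatic tumours. On normal gland 2 and metastatic tumour 2 it was below the array's 30th percentile, which was 4.83 to 4.95, so those values are in the lowest part of the array's range. Non-metastatic tumour 3 and metastatic tumour 3 were intermediate.

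Lalba, the alpha-lactalbumin subunit of lactose synthase, read 11.65, 6.84 and 11.47 in the normal glands, 12.52, 12.15 and 9.61 in the non-metastatic tumours and 12.96, 6.69 and 10.96 in the metastatic tumours. Its highest values were in tumours and its lowest was in a metastatic tumour, a factor of 77.6 apart. The groups overlapped.

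Glycam1, a mucin-like glycoprotein secreted into milk, had the widest range, at 6.64 between its lowest and highest array. It read 13.36, 6.88 and 13.52 in the normal glands, 12.85, 10.84 and 10.57 in the non-metastatic tumours and 13.21, 8.30 and 8.60 in the metastatic tumours. Here metastatic tumour 3 was nearly as low as metastatic tumour 2, unlike in the caseins. Glycam1 is also made by high endothelial venules of lymph nodes. The 5 measured markers of those vessels had a mean level of 5.56 to 6.42 across arrays, with Chst4 below the 30th percentile on all 9. Madcam1, an adhesion molecule of such vessels, read 6.67, 5.81 and 8.25 in the normal glands, lowest in normal gland 2 and highest in normal gland 3 as Glycam1 was, and 5.88 to 6.19 in the tumours. In addition, 8 markers of B cells and lymph nodes had a mean level of 5.28 to 5.64. The part of these vessels and cells in the Glycam1 values was not tested.

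Ltf, the iron-binding lactoferrin, departed from the others. It read 9.95, 10.61 and 9.84 in the normal glands, 12.92, 11.04 and 10.05 in the non-metastatic tumours and 12.54, 8.80 and 10.95 in the metastatic tumours. Normal gland 2 was the highest of the normal glands, while metastatic tumour 2 was the lowest array of all. Lactoferrin is also a granule protein of neutrophils. The 11 neutrophil markers had a mean level of 6.11 in non-metastatic tumour 2 and 4.87 to 5.23 on the other arrays. Of these markers, 2 were below the 30th percentile on every array. The part of these cells in the Ltf values was not tested.

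Of the fat globule genes, Btn1a1, the butyrophilin of the globule membrane, moved like the caseins. It read 10.89, 8.27 and 11.23 in the normal glands, 10.28, 10.56 and 9.18 in the non-metastatic tumours and 10.83, 6.14 and 9.95 in the metastatic tumours. The lowest value, in metastatic tumour 2, was a factor of 34.2 below the highest.

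Xdh, xanthine oxidoreductase, which binds butyrophilin on the droplet and also works in purine breakdown in many tissues, was even across the normal glands. It read 10.92, 10.78 and 11.03 there, 11.35, 11.02 and 9.31 in the non-metastatic tumours and 10.48, 7.50 and 10.19 in the metastatic tumours. Normal gland 2 was only 0.20 below the mean of the other normal glands. All 3 metastatic tumours lay below all 3 normal glands.

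**Figure D1:**
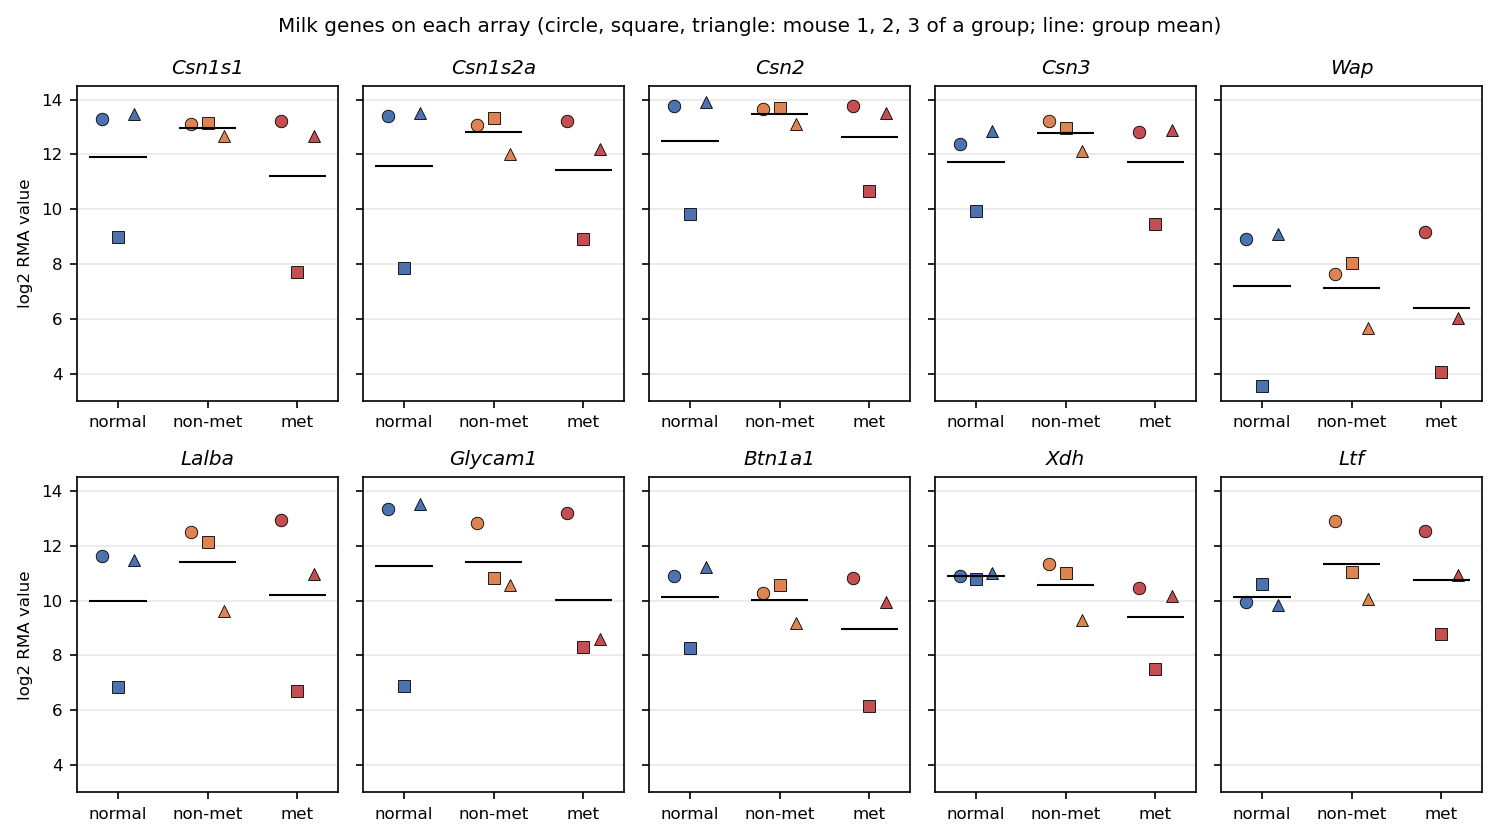
Log2 expression of the 10 milk genes on each of the 9 arrays, 1 panel per gene, coloured by group, with a circle, square and triangle for replicates 1, 2 and 3 and a line at the group mean. Normal gland 2 and metastatic tumour 2 are the lowest arrays in 8 of the 10 panels, and Xdh and Ltf are the exceptions.

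The plot of values by array shows that the pair of low arrays was shared by most of the set. Normal gland 2 and metastatic tumour 2 were the lowest of the 9 arrays for 8 of 10 milk genes, against 736 of 17478 genes (4.21%) in the whole table. The genes were read on the same arrays and are not independent of each other. The lowest array was metastatic tumour 2 for 6 milk genes and normal gland 2 for 4, where 10.7% and 24.9% of all genes had their lowest value.

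Within each group the order of arrays also recurred. Metastatic tumour 2 was the lowest metastatic tumour for 10 of 10 genes, non-metastatic tumour 3 the lowest non-metastatic tumour for 10 of 10, and normal gland 2 the lowest normal gland for 9 of 10. The share of all genes with the same order was not computed, so these counts have no background to be read against. The drop of normal gland 2 below the mean of the other normal glands was 2.67 to 4.39 for the 3 caseins other than Csn1s2a and 5.59 for Csn1s2a, and it reached 6.56 for Glycam1. The drop of metastatic tumour 2 below the other metastatic tumours ran from 2.60 for Glycam1 to 5.28 for Lalba. Non-metastatic tumour 3 lay 0.45 (Csn1s1) to 2.73 (Lalba) below the other non-metastatic tumours, so the spread in that group was smaller.

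The median spread of the milk genes within groups exceeded the median over all genes. Xdh in the normal glands was an exception, with an SD of 0.13. The median SD of the milk genes came to 2.43 for the normal glands, 0.91 for the non-metastatic and 2.38 for the metastatic tumours, where the median over all genes was 0.19, 0.19 and 0.14. Over the 9 arrays, Glycam1 had a larger SD than 99.8% of genes, and Xdh, the lowest of the set in this respect, a larger SD than 97.0%.

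**Figure D2:**
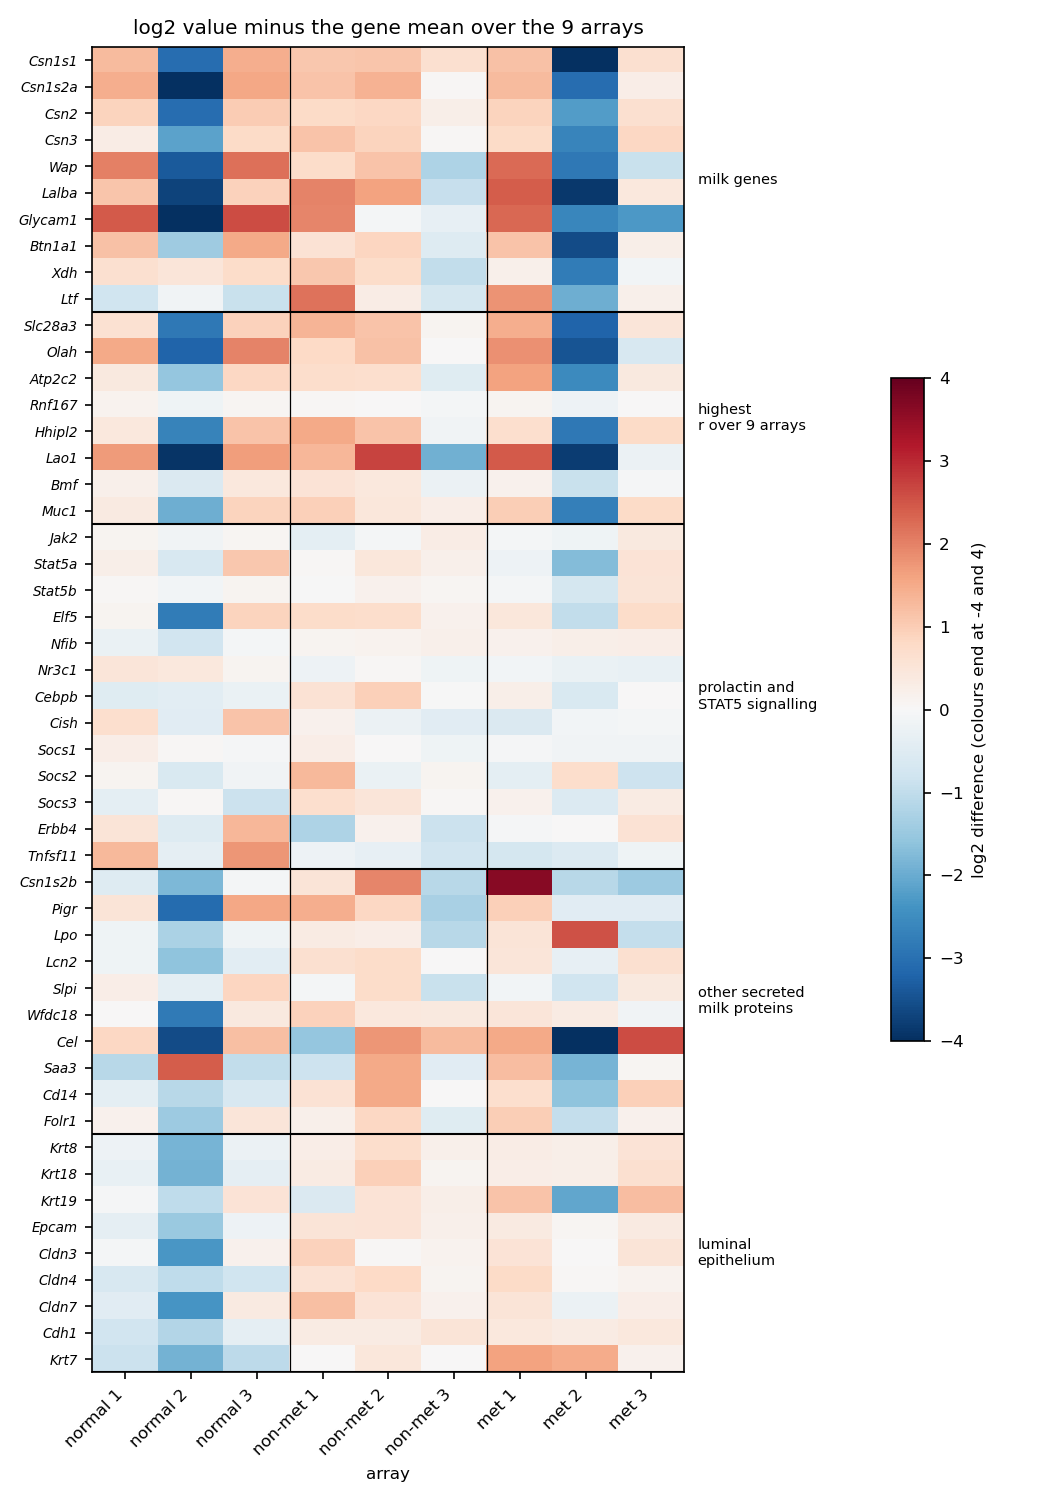
Log2 expression after subtracting each gene's own mean, with arrays in columns by group and genes in rows, for the milk genes, the 8 genes most like them, and the lists of prolactin and STAT5 signalling, other milk proteins and luminal epithelium. The columns of normal gland 2 and metastatic tumour 2 hold the lowest values for most milk genes, and Ltf and Xdh are near or above their mean in normal gland 2.

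Marker genes of the low arrays differed. In the mean of each list after centring every gene on its 9 arrays, the milk genes stood at -2.45 in normal gland 2 and -2.98 in metastatic tumour 2, and between -0.37 and 1.42 elsewhere. The luminal markers stood at -1.66 in normal gland 2 and 0.01 in metastatic tumour 2. Krt8, a defining luminal keratin, read 8.60 in normal gland 2 and 10.24 and 10.22 in the other normal glands, whereas it read 10.68 in metastatic tumour 2 and 10.75 and 11.00 in the other metastatic tumours. Krt19, another luminal keratin, read 7.12 in metastatic tumour 2 and 10.33 and 10.44 in the other metastatic tumours, and there the whole luminal list stood at 0.66 and 0.48. In metastatic tumour 2, Krt8 was thus 0.20, Krt19 3.27 and Csn1s1 5.22 below the mean of the other metastatic tumours. Krt19 had the largest drop of the luminal list. The remaining luminal markers dropped by 0.09 (Cdh1) to 0.62 (Cldn7), except Krt7, whose drop of -0.59 means a higher value there.

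Markers of other tissues were also high in normal gland 2. Its 8 skeletal muscle markers averaged 3.36, against -0.82 and -0.47 in the other normal glands, and its 10 epidermis markers averaged 3.07, against -0.68 and -0.60. The 9 white adipocyte markers averaged 3.87, against 3.61 and 2.70. Of 7 endothelial and 7 macrophage markers, 6 each were highest on this array, as was 1 of 7 myoepithelial markers. The part of muscle, epidermis and the number of luminal cells in the low milk genes of this array was not tested. In metastatic tumour 2 the muscle markers averaged -0.69, against -1.06 and -1.0 in the other metastatic tumours, and the epidermis markers -0.46, against 0.05 and -0.57. In non-metastatic tumour 3 the muscle markers averaged 1.30, against 0.51 and -1.13 in the others of its group. The epidermis markers averaged -0.72 there, against -0.60 and 0.51. What part muscle had in the milk genes of these tumours was not tested.

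**Figure D3:**
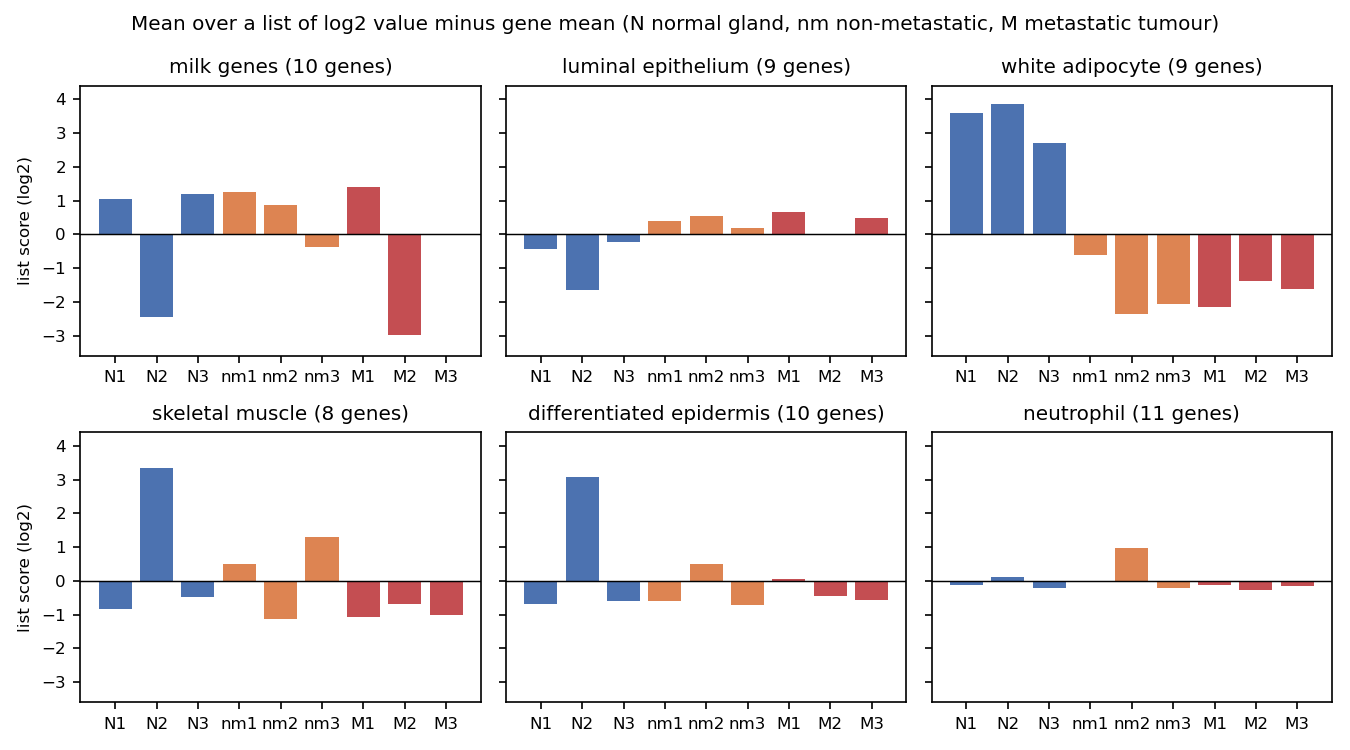
Mean of each gene list on each array, in log2 units after centring every gene on its mean over 9 arrays, for the milk genes and lists of tissue markers. Normal gland 2 combines low milk genes (-2.45) with high muscle (3.36) and epidermis (3.07) markers, and metastatic tumour 2 has low milk genes (-2.98) with luminal markers at 0.01.

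Metastatic and non-metastatic tumours were then compared. None of the 10 milk genes passed an adjusted p under 0.05 in limma with Benjamini-Hochberg adjustment, and 0 had an unadjusted p under 0.05. In this comparison 1 of 17478 genes passed the adjusted threshold (0.00572%), and 5.07% had an unadjusted p under 0.05. All 10 milk genes had a lower mean in metastatic tumours, with a median log2 change of -1.11, where the median over all genes was -0.02 and 54.3% of genes were below 0. No milk gene separated the groups without overlap, against 10.3% of all genes.

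Each change had a 95% interval that included 0. Csn1s1 averaged 12.98 ± 0.26 (SD, n = 3) in non-metastatic and 11.21 ± 3.03 (SD, n = 3) in metastatic tumours, a log2 change of -1.77 with a 95% interval of -5.46 to 1.91 and an adjusted p of 0.902 in limma. Without metastatic tumour 2 this change was -0.029, and it ran from -2.77 to -0.029 over all single arrays left out. Xdh had the smallest adjusted p of the set, 0.887 in limma, with means of 10.56 ± 1.10 and 9.39 ± 1.64 (SD, n = 3 each) and a change of -1.17 (-3.02 to 0.68), which was -0.23 without metastatic tumour 2. The Lalba means were 11.43 ± 1.58 and 10.20 ± 3.21 (SD, n = 3 each), a change of -1.22 (-5.41 to 2.97). These intervals include both large decreases and increases, so they do not show that the groups are alike. For the other 7 genes the change was between -1.38 (Glycam1) and -0.57 (Ltf).

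The shared direction rested on metastatic tumour 2. Without that array 4 of 10 genes were below 0 and the median change was 0.13. Glycam1 remained below 0, with metastatic tumour 3 low as well.

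Non-metastatic tumours and normal glands were compared next. Again 0 of 10 milk genes passed in limma and 0 had an unadjusted p under 0.05, in a comparison where 18.8% of all genes passed the adjusted and 34.4% the unadjusted threshold. The mean was higher in tumours for 7 genes and lower for 3 (Wap, Btn1a1 and Xdh), where 44.4% of all genes were lower, with a median change of 1.02 against 0.05 over all genes. No gene separated the groups, whereas 36.2% of all genes did. Lalba differed most, at 9.99 ± 2.72 in normal glands and 11.43 ± 1.58 in tumours (SD, n = 3 each). Ltf averaged 10.13 ± 0.42 and 11.34 ± 1.46 (SD, n = 3 each). Without normal gland 2 the picture turned: 8 of 10 genes were below 0 and the median was -0.41.

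Metastatic tumours and normal glands gave the same count, with 0 of 10 milk genes past the threshold in limma and 0 at an unadjusted p under 0.05, where 13.3% of all genes passed the adjusted and 30.5% the unadjusted threshold. The change was above 0 for 4 genes and below 0 for 6, with a median of -0.43, and 44.8% of all genes were below 0. Xdh averaged 10.91 ± 0.13 in normal glands and 9.39 ± 1.64 in metastatic tumours (SD, n = 3 each), a log2 change of -1.52 (SE 0.80, 95% interval -3.37 to 0.33) with an adjusted p of 0.242 in limma. Without metastatic tumour 2 the change was -0.58, and over all single arrays left out it ran from -2.07 to -0.58. It was the only milk gene whose groups did not overlap, 1 of 10 against 38.5% of all genes. Without normal gland 2, 9 of 10 genes were below 0 with a median of -1.80, and without metastatic tumour 2, 2 of 10 were below 0 with a median of 1.07.

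All 6 tumours against the normal glands gave 6 genes above 0 and 4 below, with a median of 0.35, where 44.3% of all genes were below 0. None passed in limma and 0 had an unadjusted p under 0.05, where 22.8% of all genes passed the adjusted and 37.1% the unadjusted threshold, and 0 separated the groups (26.0% of all genes). Without normal gland 2 the median was -1.15 and 9 of 10 were below 0, and without metastatic tumour 2 it was 1.05 and 2 of 10 were below 0. In each of the 3 comparisons with normal gland the same 3 control arrays were used, so these are not independent. No milk gene passed the threshold in any of the comparisons. For Glycam1 in all tumours against normal gland the 95% interval ran from -4.43 to 3.38, so the groups are not shown to be alike.

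**Figure D4:**
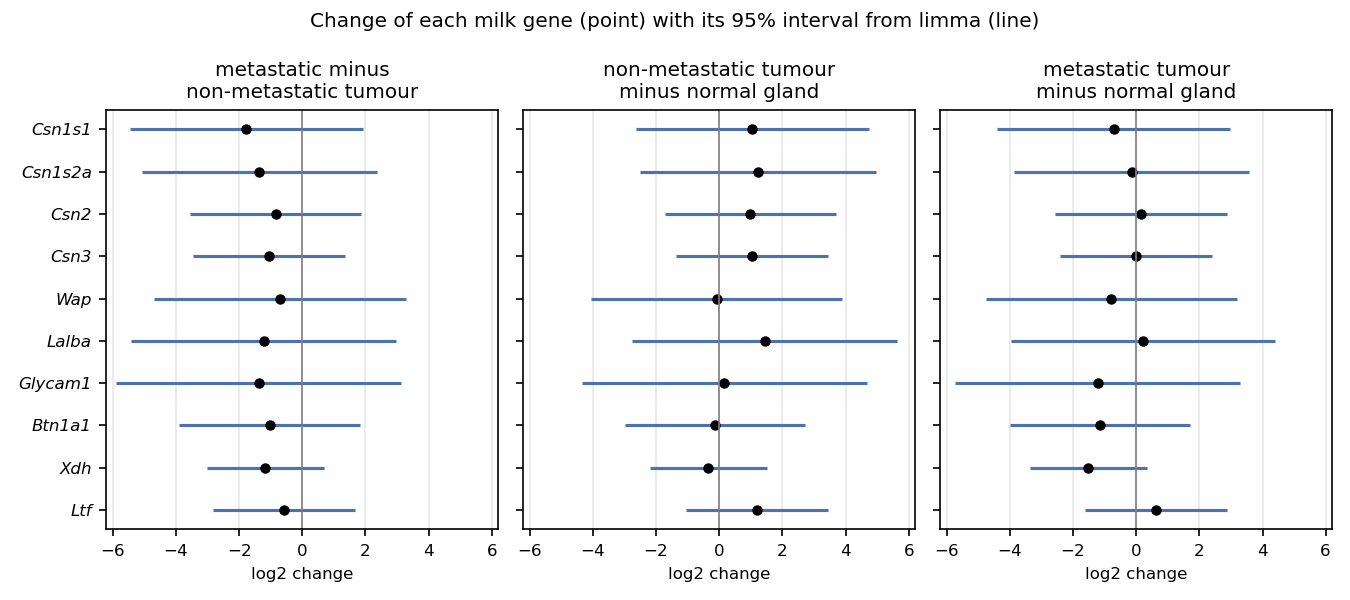
Log2 change of each milk gene with its 95% interval (limma, n = 3 arrays per group) in the comparisons described, with 0 marked. Every interval includes 0, and the standard errors between the 2 tumour groups run from 0.80 for Xdh to 1.96 for Glycam1, where the median over all genes is 0.16.

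**Figure D5:**
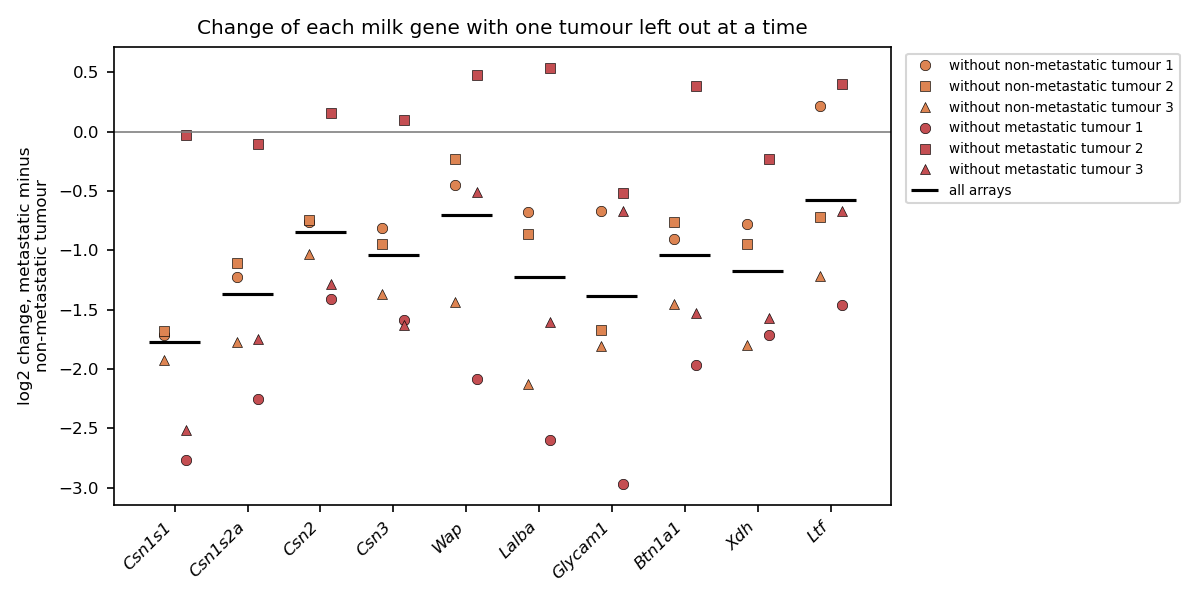
Log2 change of each milk gene between metastatic and non-metastatic tumours with all arrays (black line) and with 1 tumour left out at a time (points). All 10 black lines lie below 0, and without metastatic tumour 2 only 4 of 10 genes do.

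Other genes of milk secretion were described by list. Of 12 genes of the fat globule and lipid secretion, 3 fell and 0 rose in non-metastatic tumours against normal gland, where 7.60% of all genes fell, and 9 did not pass. In metastatic tumours 5 fell and 0 rose, where 6.00% of all genes fell. Cd36, a fatty acid receptor, averaged 12.74 ± 0.34 in normal glands and 9.12 ± 0.54 in non-metastatic tumours (SD, n = 3 each), a change of -3.62 (adjusted p 0.0013 in limma). Lpl, lipoprotein lipase, changed by -3.42 (adjusted p 0.0023) and Dgat1, which completes triglyceride synthesis, by -1.72 (adjusted p 0.0058) in limma. Cd36, Lpl, Dgat1, Cidea and Gpat4 fell in metastatic tumours, and Gpat4 was named after its values were seen. Cidea, a lipid droplet protein, averaged 11.58 ± 0.26 in normal glands and 6.90 ± 1.86 in metastatic tumours (SD, n = 3 each), with an adjusted p of 0.028 in limma. That call was lost without normal gland 1 or 2 or metastatic tumour 2 or 3, at adjusted p 0.0781 to 0.0924 in limma. Most of these genes are also expressed in fat cells, and 9 of 9 white adipocyte markers fell in both tumour groups, with medians of -5.26 and -5.37. The part of fat cells in these falls was not tested.

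Other members of the list resembled the milk genes instead. Muc15, a mucin of the globule membrane, read 12.05, 8.81 and 12.54 in the normal glands, 11.90, 11.84 and 11.49 in the non-metastatic tumours and 11.86, 6.23 and 12.08 in the metastatic tumours. Olah, which ends fatty acid synthesis at medium chains, read 8.99, 4.26 and 9.44, then 8.25, 8.65 and 7.48, then 9.30, 4.01 and 6.83. Both were lowest on the same pair of arrays. In all, that held for 4 of the 12 genes. Neither gene passed in any comparison, and Muc15 was chosen after its values were seen.

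Of 10 other secreted milk proteins measured, 0 passed in any comparison in limma, where 0.00572% of all genes passed between the tumour groups and 18.8%, 13.3% and 22.8% in non-metastatic, metastatic and all tumours against normal gland. Lcn2, an iron-siderophore binding protein, had the smallest p against normal gland, at 11.46 ± 0.78 in normal glands and 12.67 ± 0.38 in non-metastatic tumours (SD, n = 3 each). Of 10 genes of lactose synthesis and ion transport, 1 rose in metastatic tumours against normal gland, where 7.35% of all genes rose, and 9 did not pass. It was Slc12a2, a sodium, potassium and chloride cotransporter, at 10.48 ± 0.31 and 11.67 ± 0.37 (SD, n = 3 each), with an adjusted p of 0.015 in limma (0.057 without metastatic tumour 3). B4galt1, the catalytic partner of alpha-lactalbumin, did not pass.

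Of 13 measured genes of prolactin and STAT5 signalling, 1 fell in non-metastatic tumours, and 1 rose and 1 fell in metastatic tumours, all against normal gland. Of all genes, 7.60% fell in non-metastatic tumours, and 7.35% rose and 6.00% fell in metastatic tumours, so 1 of 13 is near that share. Nr3c1, the glucocorticoid receptor, changed by -0.45 (adjusted p 0.046) and -0.57 (adjusted p 0.030), and Nfib, a transcription factor, by 0.59 in metastatic tumours (adjusted p 0.049), all in limma. These calls lay close to the threshold and each was lost when single arrays were left out, with adjusted p up to 0.14 for Nr3c1 and 0.136 for Nfib in limma. Stat5a read 9.20, 8.31 and 10.04 in the normal glands, 9.02, 9.42 and 9.17 in the non-metastatic tumours and 8.77, 7.23 and 9.52 in the metastatic tumours. It was lowest on the low arrays, and it did not pass in any comparison. Stat5b ranged from 8.60, in metastatic tumour 2, to 9.81. Elf5 read 9.97, 7.08 and 10.76, then 10.60, 10.56 and 10.03, then 10.32, 8.89 and 10.62, and was lowest in normal gland 2, by 3.29 below the other normal glands. The prolactin receptor had no probe set with that symbol alone and was not analysed here.

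Genes most like the milk genes over the 9 arrays, by Pearson correlation with the mean of the 10 after centring, were chosen from the whole table for that likeness. They were Slc28a3 (0.980), Olah (0.976), Atp2c2 (0.966), Rnf167 (0.966), Hhipl2 (0.959), Lao1 (0.955), Bmf (0.955) and Muc1 (0.953). Over the 7 arrays other than the low pair, the same correlations were 0.871, 0.851, 0.833, 0.852, 0.646, 0.898, 0.831 and 0.566. Slc28a3, a nucleoside transporter, read 10.88, 7.40 and 11.21, then 11.62, 11.43 and 10.37, then 11.72, 7.07 and 10.77, by group. Rnf167 spanned only 0.33 across arrays, so its likeness is one of pattern and not of size.

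Over the 6 tumours alone the closest were Vps35l (0.996), Spef1l (0.996), Pgd (0.992), Ppp1r7 (0.991) and Btn2a2 (0.990). A predicted symbol that ranked just above Btn2a2 is not named. The milk gene mean was -2.98 in metastatic tumour 2 and -0.37 to 1.42 in the other tumours, so 1 array weighs heavily here. Over the 7 arrays other than the low pair, the correlations were 0.627, 0.741, 0.709, 0.088 and 0.664. Over all 9 arrays they were 0.779, 0.778, 0.407, 0.592 and 0.928. Vps35l, Spef1l and Ppp1r7 spanned 0.25 to 0.47. Within the set, each gene's correlation with the mean of the other 9 was highest for Lalba (0.975) and lowest for Ltf (0.518), and Xdh had 0.668. Over the 7 other arrays the value for Xdh was 0.806 and for Ltf 0.278. Csn3 went from 0.944 to 0.504 and Glycam1 from 0.832 to 0.695, while the remaining genes had 0.842 (Btn1a1) to 0.908 (Csn1s2a).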

How the data were processed

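RNA from frozen mammary tissue of 9 mice was measured on Affymetrix Mouse Gene 2.0 ST arrays. The deposited table holds log2 values of 41345 probe sets; the authors made it with RMA, per the submitters' processing notes, and the log2 scale was read from the values. Build and RMA version are not given in the sources used here. Of 25335 probe sets listed in the platform annotation, 23521 had 1 gene symbol, 1814 had several and 16010 of the table's probe sets were not listed. The probe set with the highest mean stood for a gene. Genes that exceeded the 30th percentile of the array on 3 or more arrays (17478) were fitted in limma 3.58.1 under R 4.3.3 with 1 mean per group, 6 residual degrees of freedom and eBayes. Tests were two-sided, with Benjamini-Hochberg adjustment over all genes tested and a threshold of 0.05. The scripts were tested on simulated data. The milk genes, the lists (4 pathway and 10 marker lists) and the rule for naming genes were chosen with earlier results of these data known. The rule names the 10 genes, up to 4 called genes of each pathway list or else those of smallest p, Elf5, Stat5a and Stat5b, and the 8 and 5 genes most like the set. In the lists of genes most like the set, predicted gene symbols were passed over. Replicates were separate mice, and their numbers were not taken as pairs: same-number deviations correlated at -0.281 to 0.171. Promoters come from RefSeq (GRCm38.p6). Precision is limited by the number of arrays. Alternatives changed the filter, scaling, weights and fit and left out each array.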

Additional observations from a re-analysis of the deposited data

Results flagged for a closer look

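Among the 6 tumours, metastatic tumour 2 lay far below the nearest other tumour for 5 milk genes by Dixon's test, whose critical value for 6 samples is 0.625. The gap divided by the range was 0.903 for Csn1s1, 0.697 for Csn1s2a, 0.789 for Csn2, 0.707 for Csn3 and 0.649 for Btn1a1. Chance alone passes about 1 in 20 groups, and the 5 genes share 1 array and are not independent. Over all genes, 2076 of 17478 genes (11.9%) passed, and 185 (1.06%) passed as low in metastatic tumour 2. The test treats both tumour groups as 1 set of 6. On the 7 arrays other than the low pair the caseins read 12.0 to 13.9, close to the highest values of the arrays, 13.92 to 14.04. Btn1a1, at 9.18 to 10.83 in the other tumours, lay further below. The part of this upper limit in the ratios was not tested. For Wap, Lalba, Xdh and Ltf the ratio for metastatic tumour 2 was 0.303 (Ltf) to 0.470 (Xdh), and for Glycam1 the larger gap was at the upper end, in metastatic tumour 1, with a ratio of 0.073.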

How the results depend on the processing

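Across 23 settings no milk gene passed the threshold in any comparison, and the lowest adjusted p in limma was 0.11. Of 800 recomputed milk gene changes, 80 had the opposite sign. Many of the 800 could not turn. Settings such as the filter, or leaving out an array of a group not compared, leave the log2 change as it is. The count is therefore no measure of how stable the signs are. Array weights turned the change in non-metastatic tumours against normal gland to -0.069 for Csn1s1, -0.22 for Csn1s2a, -0.053 for Csn2 and -1.57 for Glycam1. In metastatic tumours against normal gland they gave -0.63 for Csn2, -0.19 for Csn3 and -0.77 for Lalba, and in all tumours -0.71 for Csn1s1, -0.78 for Csn1s2a, -0.34 for Csn2 and -0.29 for Lalba. Median centring gave 0.0097 for Wap in non-metastatic tumours, and quantile normalisation -0.026 for Csn3 in metastatic tumours, both against normal gland.

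Leaving out normal gland 2 and metastatic tumour 2 together was chosen after seeing the data. Between the tumour groups it gave 0.15 for Csn2, 0.097 for Csn3, 0.48 for Wap, 0.54 for Lalba, 0.38 for Btn1a1 and 0.41 for Ltf. In non-metastatic tumours against normal gland it gave -0.41 for Csn1s1, -0.64 for Csn1s2a, -0.35 for Csn2, -0.13 for Lalba and -2.02 for Glycam1. It gave -0.20 for Csn2 in metastatic tumours, and in all tumours -0.42 for Csn1s1, -0.69 for Csn1s2a and -0.27 for Csn2.

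Leaving out 1 array at a time, the changes between the tumour groups ran from -1.41 to 0.15 for Csn2, -1.63 to 0.097 for Csn3, -2.08 to 0.48 for Wap, -2.60 to 0.54 for Lalba, -1.97 to 0.38 for Btn1a1 and -1.46 to 0.41 for Ltf. Those that kept their sign ran from -2.77 to -0.029 for Csn1s1, -2.26 to -0.10 for Csn1s2a, -2.97 to -0.51 for Glycam1 and -1.80 to -0.23 for Xdh. In non-metastatic tumours against normal gland they ran from -0.41 to 1.83 for Csn1s1, -0.64 to 2.19 for Csn1s2a, -0.35 to 1.69 for Csn2, -1.91 to 0.87 for Wap, -0.13 to 2.35 for Lalba, -2.02 to 1.30 for Glycam1, -1.05 to 0.43 for Btn1a1 and -0.75 to 0.28 for Xdh, and without a change of sign from 0.16 to 1.60 for Csn3 and 0.41 to 1.85 for Ltf. In metastatic tumours against normal gland they ran from -2.18 to 1.02 for Csn1s1, -2.0 to 1.13 for Csn1s2a, -1.20 to 1.14 for Csn2, -0.89 to 1.14 for Csn3, -2.61 to 0.39 for Wap, -1.35 to 1.98 for Lalba, -2.09 to 0.26 for Btn1a1 and -0.26 to 1.61 for Ltf, and without a change of sign from -3.41 to -0.085 for Glycam1 and -2.07 to -0.58 for Xdh. In all tumours they ran from -1.29 to 1.04 for Csn1s1, -1.32 to 1.5 for Csn1s2a, -0.77 to 1.27 for Csn2, -0.37 to 1.09 for Csn3, -2.26 to 0.52 for Wap, -0.74 to 1.71 for Lalba, -2.72 to 0.61 for Glycam1 and -1.57 to 0.071 for Btn1a1, and without a change of sign from -1.21 to -0.46 for Xdh and 0.47 to 1.41 for Ltf.

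With the replicate block, 0 milk genes passed and the call of Nr3c1 was lost in both tumour groups (adjusted p 0.065 and 0.0502 in limma), as was that of Nfib (0.072). The replicate numbers name different mice. Over all genes, the count past the threshold ran from 0 to 40 between the tumour groups (1 with all arrays), 928 to 5360 (3288) in non-metastatic and 282 to 6498 (2332) in metastatic tumours against normal gland, and 1331 to 7603 (3980) in all tumours. Against normal gland, each low end came from leaving out normal gland 2 and metastatic tumour 2 together, chosen after seeing the data. Each high end came from array weights. With 1 array left out at a time the lowest counts were 1321, 638 and 1873, in the same order of comparisons. Where no cause is named, the cause was not tested. The number of arrays and the low arrays limit the precision, and values near the top or floor of an array hold the least detail.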

Other observations

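A few secreted milk proteins outside the set had patterns of their own and were chosen after their values were seen. Csn1s2b, a further alpha casein gene, read 9.55 in metastatic tumour 1 and 4.11 to 7.87 on the other arrays. Lpo, lactoperoxidase, read 9.90 in metastatic tumour 2 and 6.08 to 7.88 elsewhere, so it was highest on an array where the caseins were low. In normal gland 2, where the caseins were low as well, Lpo read 6.08, its lowest value. Cel, the bile salt-stimulated lipase of milk, read 5.75 in normal gland 2 and 5.31 in metastatic tumour 2, the same pair of arrays as the caseins, and 7.78 to 11.94 elsewhere. Saa3, a serum amyloid A protein secreted into milk, read 9.49 in normal gland 2 and 5.97 and 6.09 in the other normal glands. None of these passed in any comparison in limma, so the values are given as single arrays.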
